A study of Mus musculus with 3 samples.

Results

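Connecting tubule and principal cells of the mouse kidney were selected as 165 of 22679 barcodes from 3 single-cell libraries, 58 from a young, 33 from an aged and 74 from an aged D+Q kidney preparation. A member was a barcode with at most 50% mitochondrially encoded counts that held at least 3 UMIs (unique molecular identifiers, 1 per captured transcript) summed over Aqp2, Aqp3, Aqp4, Scnn1b, Scnn1g, Hsd11b2 and Avpr2. At least 2 of those 7 genes had to be detected, and no UMI of Slc12a1, Slc12a3, Slc26a4 or Atp6v0d2 was allowed, which are transporter and pump genes of the thick ascending limb, the distal convoluted tubule and the intercalated cells. The selection therefore used measured values, and the levels of these 11 genes describe the members and test nothing. All animals were male mice. The young ones were killed at 3 to 4 months of age and the 2 aged groups at 20 months, 1 after vehicle and 1 after D+Q. This abbreviation usually stands for dasatinib with quercetin, and the series title names senolytic therapy, a treatment meant to remove senescent cells. Kidneys were minced and digested with collagenase II, strained, cleared of red blood cells and made into 3′ libraries. Each group is 1 library, and the labels do not say how many animals it came from. No difference between libraries below has a replicate check, so age, treatment and library cannot be told apart.

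The connecting tubule and the collecting duct are the last segments of the nephron, where the final sodium, potassium, calcium and water content of urine is set. Vasopressin, acting through its receptor Avpr2, moves the water channel Aqp2 to the luminal membrane of principal cells, and water leaves the cell through Aqp3 and Aqp4. Aldosterone acts on the mineralocorticoid receptor Nr3c2 to raise sodium uptake through the epithelial sodium channel, whose β and γ subunits are Scnn1b and Scnn1g, and Hsd11b2 protects that receptor by inactivating glucocorticoids. Connecting tubule cells share this sodium machinery and also reabsorb calcium, through the channel Trpv5, the buffer proteins Calb1 and S100g and the exchanger Slc8a1, and they secrete the protease kallikrein, Klk1.

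The promoters of 2 genes that frame the results are shown first: Aqp2, the marker whose level differed most between libraries, and Fxyd4, a regulator of the sodium pump that was found in members by level and not by the rule. Gata3, a zinc finger transcription factor of this lineage that binds GATA motifs, also lay above the other barcodes in members of every library. The stretches are the 200 bases before the annotated start, from RefSeq on GRCm38.p6, read 5′ to 3′ on the gene's strand. Capitals mark matches to AGATAA, to AGATAG, to TGATAA or to TGATAG on either strand. Aqp2 (chr15:99578856-99579055, plus strand) held 1 match, and Fxyd4 (chr6:117937336-117937535, minus strand) held 0. Of 32851 promoters, 7030 (21.4%) held such a match in the same 200 bases. A match is a string of letters and no measured binding site.
Aqp2: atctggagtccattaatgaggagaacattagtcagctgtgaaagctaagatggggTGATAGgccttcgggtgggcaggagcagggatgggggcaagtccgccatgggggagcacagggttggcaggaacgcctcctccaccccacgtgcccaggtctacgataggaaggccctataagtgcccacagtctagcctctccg
Fxyd4: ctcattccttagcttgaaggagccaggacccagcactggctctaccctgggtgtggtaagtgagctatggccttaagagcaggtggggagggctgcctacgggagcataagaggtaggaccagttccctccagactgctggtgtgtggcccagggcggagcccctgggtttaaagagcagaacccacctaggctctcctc

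The libraries held 6027 to 8615 barcodes and 13944270 to 24346733 UMIs, and 82 to 385 barcodes passed the mitochondrial limit and were left out. Pairs of libraries shared 28 to 38 barcode sequences, of which 0 belonged to members. Members made up 0.705% of the young barcodes under the limit (58 of 8230, exact 95% interval 0.536 to 0.910%), 0.555% of the aged (33 of 5945, 0.382 to 0.779%) and 0.938% of the D+Q barcodes (74 of 7888, 0.737 to 1.18%). The aged and D+Q intervals overlapped slightly, and the young interval overlapped both. The order of young and aged turned once the members rich in other cell types' markers, described below, were left out. All intervals given here are exact 95% intervals and cover counting error only. Dissociation sets which cells enter a library, and its part in these shares was not tested. Young members held 178132 UMIs, aged members 83540 and D+Q members 199215, so 1 count stood for 5.61, 12.0 and 5.02 CPM, counts scaled to a total of 1000000 over the members of a library, the unit of all levels below. The median member held 2647, 1953 and 2147 UMIs, near the 2405.5, 1886 and 2306 of the other barcodes.

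Most barcodes that met the marker part of the rule were removed by its other part. The markers alone took 230 young, 114 aged and 210 D+Q barcodes, of which 172 (74.8%), 81 (71.1%) and 136 (64.8%) also held a UMI of an excluded gene. Slc12a1, the sodium-potassium-chloride cotransporter of the thick ascending limb, removed 133, 48 and 91 of them. A UMI of this gene was also present in 40.3% of the other young barcodes, 32.0% of the aged and 38.1% of the D+Q barcodes, so its presence alone did not mark 1 segment. Just inside the threshold, 18 young, 5 aged and 18 D+Q members had exactly 3 marker UMIs. Just outside it, 34, 16 and 44 barcodes had 2 UMIs of 2 markers, and 13, 1 and 7 had 3 or more UMIs of a single marker. The median member had 4, 5 and 6 marker UMIs in the same order of libraries, and the highest had 37, 37 and 186.

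Aqp2, which carries regulated water uptake, had 45 young, 55 aged and 321 D+Q counts, equal to 253, 658 and 1611 CPM. It was detected in 25 of 58, 25 of 33 and 59 of 74 members (43.1%, 75.8% and 79.7%), at median depths of 2647, 1953 and 2147 UMIs. In proximal tubule barcodes, which should lack it, 3.16%, 2.79% and 4.75% held a UMI at median depths of 2339, 1818 and 2277, and the level was 14.2, 17.9 and 20.9 CPM. Hsd11b2 had 87, 126 and 297 counts, 488, 1508 and 1491 CPM, with a UMI in 35, 26 and 57 members. Aqp3 stood at 545, 443 and 738 CPM and Aqp4, the other basolateral water channel, at 44.9, 71.8 and 125 CPM. The sodium channel subunits Scnn1b (191, 323 and 261 CPM) and Scnn1g (185, 299 and 266 CPM) had overlapping intervals in aged and D+Q. Avpr2 rested on 8, 2 and 15 counts. Aqp2 was thus the only one of the 7 markers at least 2-fold higher in D+Q than in aged among the 5 with 60 or more counts. The rule selects on the sum of these genes, so their levels depend on it. Aqp2 and Hsd11b2 were detected together in 16 young, 18 aged and 44 D+Q members, and 1 D+Q member held 74 Aqp2 and 69 Hsd11b2 counts, so 3 members carried 39.6% of that library's Aqp2.

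**Figure D1:**
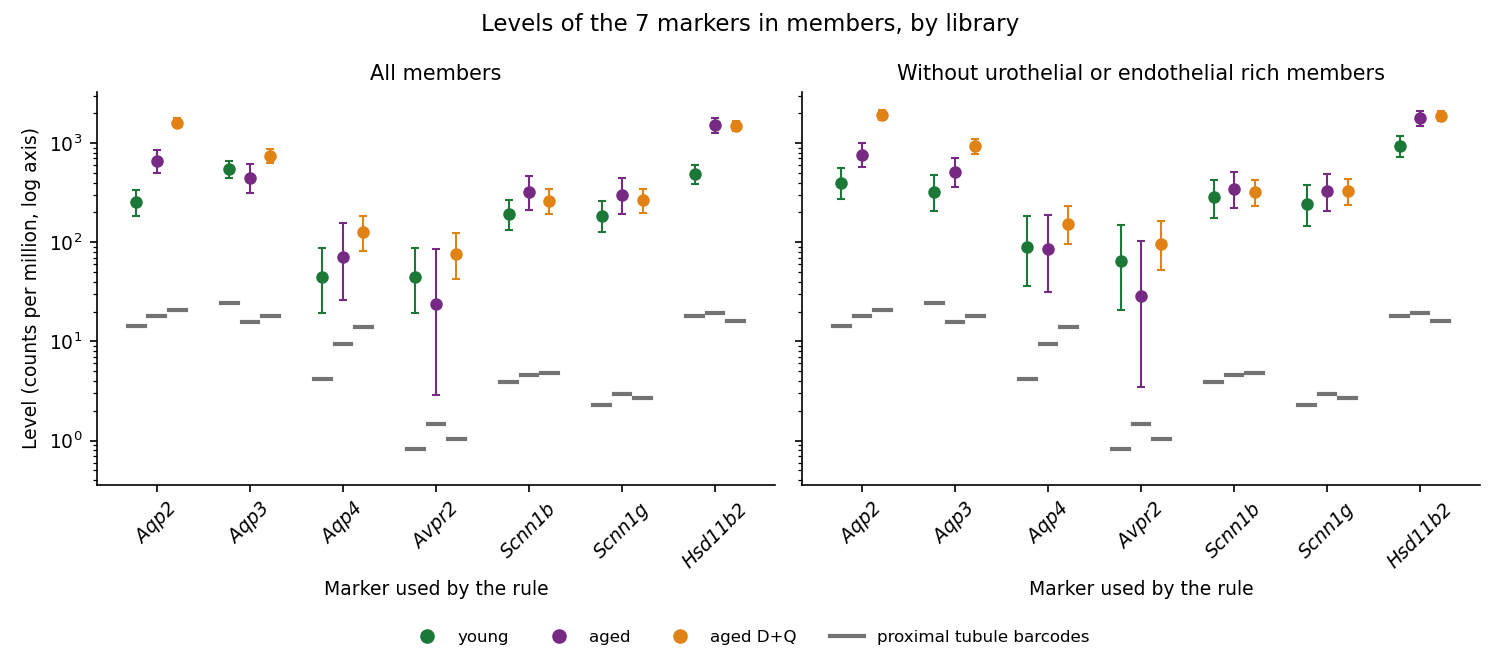
Levels of the 7 markers in members of each library, in CPM on a log axis, for all members (left) and without members rich in urothelial or endothelial markers (right). Points are levels with exact Poisson 95% intervals, and grey bars are proximal tubule barcodes of the same libraries in the order young, aged, D+Q. Aqp2 stands at 253, 658 and 1611 CPM in all members, above the 14.2 to 20.9 CPM of proximal tubule barcodes.

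The label did not hold for all members. Urothelial cells line the renal pelvis and also express Aqp3, and 14 of the 58 young members had 3 or more UMIs of urothelial markers (uroplakins, Krt5, Sprr1a and others), against 0 of 33 aged and 1 of 74 D+Q members. These 14 young members held 6 to 105 urothelial UMIs each, all 14 held Aqp3 UMIs, and 11 had no UMI of Aqp2 or Hsd11b2, while only 3 other young members lacked both. Hsd11b2 had 0 counts over the 14. Their Aqp3 level was 1096 CPM and their median mitochondrial share 23.8%. The summed level of the 12 urothelial markers was 2706 CPM in young members, 23.9 in aged and 246 in D+Q, and 10 of the 12 were detected, with Krt14 and Gsdmc2 at 0. These 14 barcodes go against the name of the group.

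**Figure D2:**
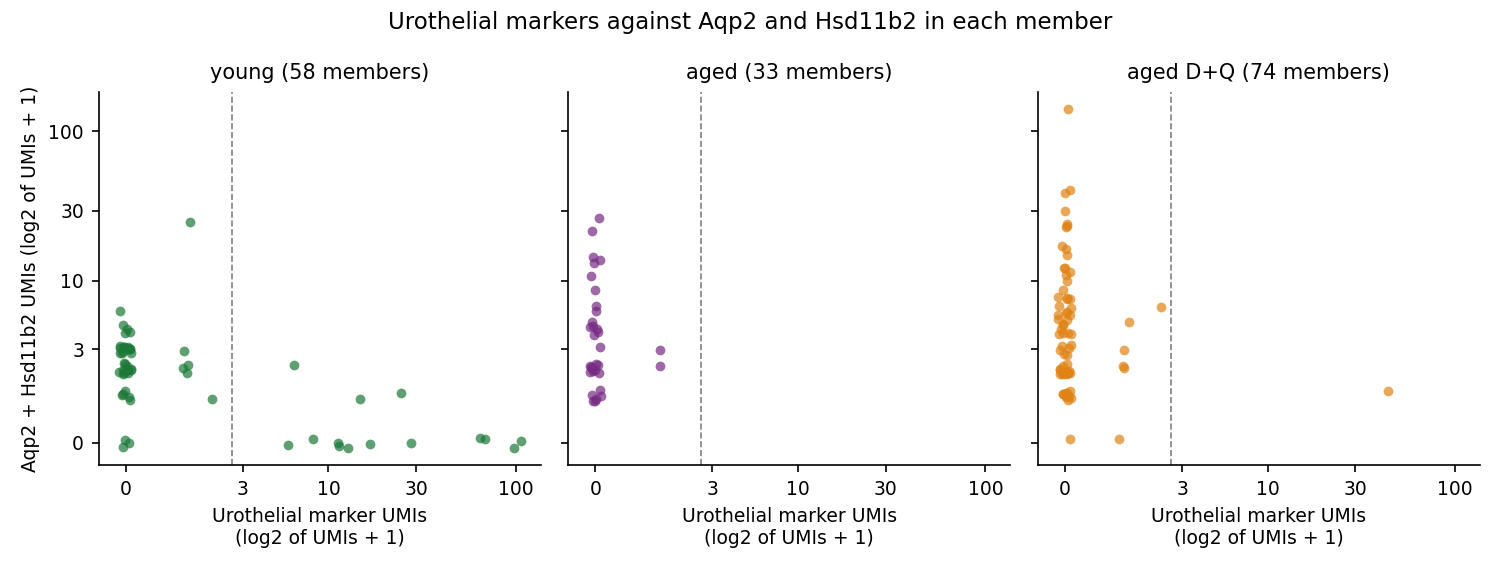
Summed Aqp2 and Hsd11b2 UMIs of each member (vertical axis) against its urothelial marker UMIs (horizontal axis), both as log2 of UMIs + 1, with 1 panel per library and small jitter on both axes. The dashed line marks the limit of 3 urothelial UMIs; 14 young members lie to its right, most of them with 0 Aqp2 and Hsd11b2 UMIs, against 0 aged and 1 D+Q member.

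Endothelial markers reached 3 or more UMIs in 13 young, 3 aged and 16 D+Q members, 2 of which, both young, were also rich in urothelial markers. These were 22.4%, 9.09% and 21.6% of members, against 17.2%, 14.0% and 13.7% of the other barcodes. The share thus lay near that of the other barcodes, and below it in aged. For urothelial markers the young shares were 24.1% of members and 2.81% of the other barcodes. The summed endothelial level over all members was 1504, 455 and 939 CPM. Leaving out the members rich in either kind kept 120 members, 33 young, 30 aged and 57 D+Q, or 0.401%, 0.505% and 0.723% of barcodes. This set was chosen after the data were seen and is called the 120 members below. In it the urothelial level was 64.4, 28.6 and 41.6 CPM with Krt5, Upk1b and Upk2 at 0, and the endothelial level 116, 172 and 132 CPM with Kdr at 0. The tubular markers of other segments were still present: those of the proximal tubule summed to 27208, 19477 and 18914 CPM, against 28535, 29988 and 31056 CPM in all other barcodes. Thick ascending limb markers summed to 1224, 1030 and 1538 CPM with Cldn16 and Tmem207 at 0, below the 2378, 1916 and 2358 CPM of the other barcodes. Distal convoluted tubule markers summed to 1675, 1674 and 1697 CPM, near the 1626, 1636 and 1555 CPM of the other barcodes. The intercalated cell factors Foxi1, Hmx2 and Dmrt2 were at 0 in young and aged and at 1 count each in D+Q. Intercalated cell markers as a list summed to 618, 959 and 1351 CPM, above the 157, 115 and 104 CPM of the other barcodes. The ammonia channels Rhcg and Rhbg, which principal and connecting tubule cells also express, held most of these counts in aged and D+Q, with 18, 22 and 68 counts of Rhcg and 6, 16 and 51 of Rhbg, out of 48, 67 and 195 for the list. Leukocyte markers summed to 142, 215 and 97.0 CPM, stromal and mural markers to 12.9, 100 and 76.2, podocyte markers to 90.2, 243 and 27.7, and thin limb markers to 283, 114 and 152 CPM. The haemoglobin genes summed to 90.2, 85.9 and 132 CPM. The part of RNA from these other cells in the results was not tested.

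Some genes outside the rule also stood above their level in the other barcodes taken as a whole, as a description, since the members were chosen on these cells. Single distal segments were closer. The connecting tubule markers Calb1, Slc8a1, Trpv5 and Klk1 summed to 5541, 7649 and 9693 CPM in members. In distal convoluted tubule barcodes they summed to 7045, 5280 and 4921 CPM, above the members in young, and in intercalated barcodes to 1190, 4696 and 9376 CPM, near the members in D+Q. Fxyd4 stood at 606, 622 and 853 CPM in young, aged and D+Q members, at least 9.82 times the other barcodes of the same library, and was detected in 27, 18 and 38 members. In proximal tubule barcodes it was 31.7, 20.8 and 19.4 CPM. Levels of Fxyd4, Gata3, Rhcg and Egfem1 in the single distal segments are not given here. Their ratios to the other barcodes therefore do not show a trait particular to members. Gata3 (140, 95.8 and 90.4 CPM) was at least 7.70 times the other barcodes, and 13 of its 25 young counts (52.0%) lay in the urothelial-rich members. Rhcg, which carries ammonia, stood at 129, 275 and 351 CPM, at least 6.72 times. The genes whose lowest ratio over the 3 libraries was highest were Egfem1 (15.3 times, 421, 682 and 216 CPM) and Frmpd4 (14.1 times, 556, 251 and 452 CPM), followed by Kif26b (12.8 times) and Mgat4c (10.5 times). Egfem1 came from few cells: 10 young, 7 aged and 10 D+Q members. Ptgs1, the constitutive prostaglandin synthase, was at least 5.24 times the other barcodes, with 60.0% of its young counts in the urothelial-rich members, and the keratin Krt7 4.93 times, with 93.5%. The others of the 20 genes ranked this way included Bmpr1b, a bone morphogenetic protein receptor, Kcnj10, a basolateral potassium channel (4.39 times), and the exchanger Slc8a1 (4.93 times). Over the 120 members Kcne1, a potassium channel subunit (24.5 times), and Mcoln3, a cation channel of endosomes (17.4 times), joined the list, and Fxyd4 reached 16.3 times. Rhbg (8.22 times) and Klk1 (7.35 times) also entered it.

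The 120 members divided by their content of connecting tubule transcripts. The UMIs of Calb1, Slc8a1, Trpv5 and Klk1 were summed in each member. Those with 0 or 1 (12 young, 6 aged and 16 D+Q) were set beside those with 10 or more (11, 11 and 16). This split was chosen after the data were seen. In all, 21 young, 24 aged and 41 D+Q members had 2 or more, and those of them under 10 were in neither set. Aqp4 had 7, 5 and 11 counts in the first set, 241, 303 and 294 CPM, and 0 counts in the second in all 3 libraries. In that second set 3 counts would give 121, 113 and 59.1 CPM. Aqp4 is 1 of the 7 genes the rule used, so its levels are a description, as are those of Aqp2 and Hsd11b2 below. Ranbp3l, a Ran-binding protein, stood at 309, 1452 and 2006 CPM in the first set and rested on 1 count per library in the second. Fxyd4 was 1375, 1089 and 1016 CPM against 242, 414 and 296 CPM. These 3 genes were thus higher in the members poor in connecting tubule transcripts in each library. Kl, the co-receptor of phosphate- and calcium-regulating FGF23, ran the other way, with 241 CPM, 0 counts and 294 CPM against 1653, 1656 and 1241 CPM. S100g, which buffers calcium in the cell, was 138, 303 and 374 CPM against 1331, 2409 and 3330 CPM. Rhbg had 0 counts in the first set of every library and 161, 452 and 828 CPM in the second. Spp1, the secreted phosphoprotein osteopontin, was 447, 605 and 1899 CPM against 3186, 3990 and 6542 CPM.

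Among the members in these 2 sets, Aqp2 did not follow the division in the same way in each library. It stood at 275, 545 and 989 CPM in members with 0 or 1 connecting tubule UMI and at 242, 565 and 2463 CPM in those with 10 or more. The intervals of the 2 sets overlapped in young and aged and did not in D+Q. A single D+Q member of the second set held 74 Aqp2 counts, and the intervals without it were not computed. Members between the 2 sets, left out here, included D+Q ones with 29, 24 and 21 Aqp2 UMIs. Hsd11b2 was 653, 242 and 882 CPM in the first set against 806, 3087 and 3251 CPM in the second. Nr3c2, the mineralocorticoid receptor, was 172, 121 and 267 CPM against 1250, 414 and 296 CPM. The median mitochondrial share was 9.12%, 5.86% and 8.39% in the first set and 9.92%, 26.0% and 38.3% in the second, so in aged and D+Q the division by transcript content was also one by mitochondrial share.

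**Figure D3:**
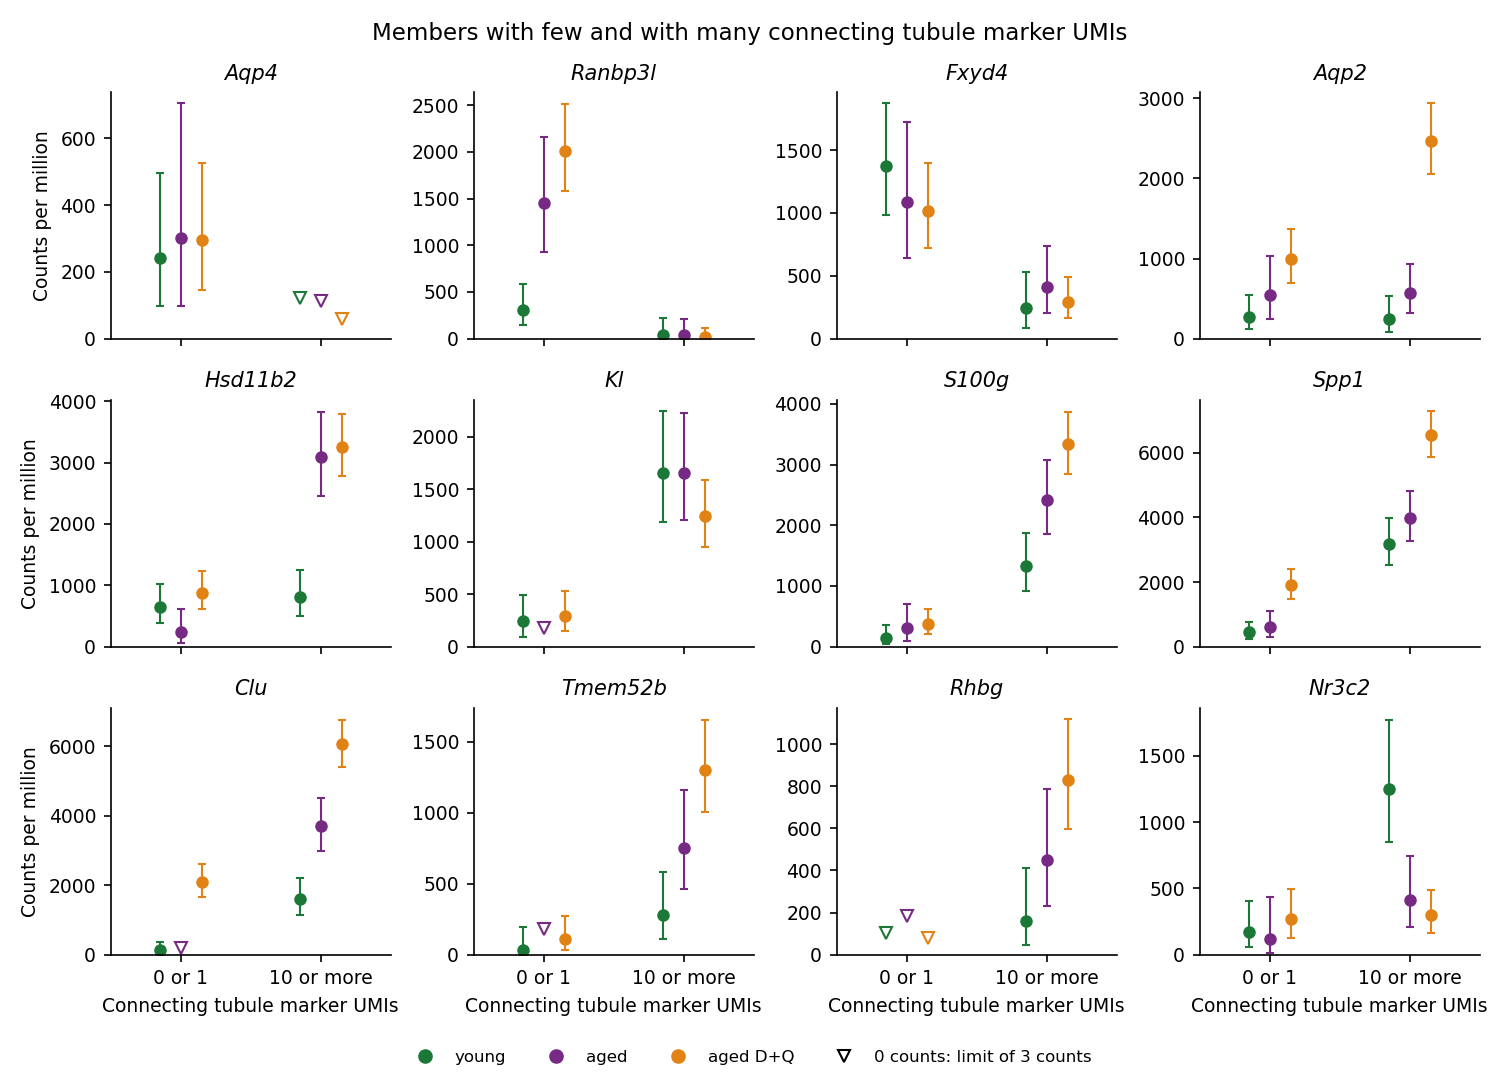
Levels of 12 genes in the members with 0 or 1 and with 10 or more connecting tubule marker UMIs, among the 120 members without urothelial or endothelial rich ones. Points are CPM with exact Poisson 95% intervals on axes that start at 0, and open triangles mark 0 counts at the limit that 3 counts would give. Aqp4, Ranbp3l and Fxyd4 are higher in the left set, and Kl, S100g, Spp1, Clu and Rhbg in the right set, in each library.

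Mitochondrially encoded counts made up a median of 9.78% (young), 15.3% (aged) and 10.3% (D+Q) of a member's counts, against 6.03%, 4.45% and 6.0% in the other barcodes. Between 25% and 50% lay 12 of 58 young, 12 of 33 aged and 21 of 74 D+Q members (20.7%, 36.4% and 28.4%), against 8.05%, 4.47% and 8.84% of the other barcodes. A high share is often read as a sign of a damaged cell, although distal tubule cells are also rich in mitochondria, and which applies here was not tested. Of the 120 members, 5 young, 12 aged and 21 D+Q lay in that range and 28, 18 and 36 at or below 25%. In the members above 25%, Hsd11b2 stood at 2130, 3856 and 3459 CPM, and at 703, 731 and 757 CPM in those at or below 25%. The low range therefore gave nearly the same Hsd11b2 level in the 3 libraries. Aqp2 was 1147, 1114 and 3275 CPM above 25% and 260, 580 and 970 CPM at or below it, so the order of the libraries for Aqp2 was kept at or below 25% but not above it. Ranbp3l had 0, 0 and 2 counts above 25% and stood at 199, 580 and 1337 CPM at or below it, and Fxyd4 was 410, 514 and 368 CPM against 1116, 774 and 1195 CPM.

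Klk1 counts were concentrated in few members. At least 30 Klk1 UMIs were held by 3 young, 4 aged and 11 D+Q members, which carried 80.2%, 80.5% and 90.9% of the Klk1 counts of their library's members. All 11 in D+Q had over 25% mitochondrial counts (30.9 to 49.2%), against 1 of 3 in young and 2 of 4 in aged. The level over all members was 2386, 4549 and 7966 CPM. Among the 120 members it was 3959, 4556 and 1018 CPM at or below 25% mitochondrial counts and 11716, 7026 and 24633 CPM above. D+Q was the lowest library in the first range and the highest in the second.

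**Figure D4:**
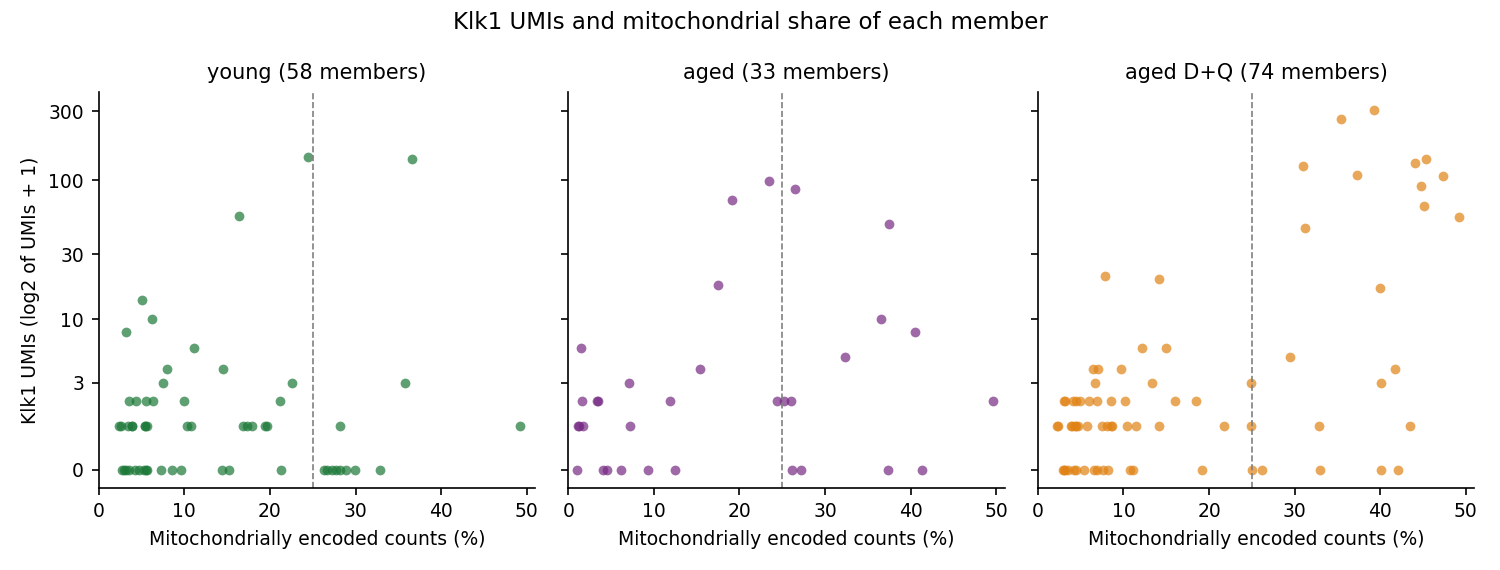
Klk1 UMIs of each member (vertical axis, log2 of UMIs + 1) against its share of mitochondrially encoded counts in percent (horizontal axis), 1 panel per library, with a dashed line at 25%. The 11 D+Q members with 30 or more Klk1 UMIs all lie right of the line, between 30.9 and 49.2%; in young 1 of 3 and in aged 2 of 4 such members do.

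Levels were then compared between libraries over genes with at least 60 counts in the members, 1324 genes for all 165 members and 583 for the 120 members. A gene was called apart when its level differed at least 2-fold, that is by 1 on the log2 scale. Between aged and young members 221 of the 1324 genes (16.7%) were apart, 8.46% higher and 8.23% lower in aged. Among the 120 members 56 of 583 (9.61%) were, 30 higher (5.15%) and 26 lower (4.46%). The median log2 ratio over all genes was 0.13 and 0.02. The split depended on the scaling: with TMM factors, which centre most genes, 36.4% of the genes apart were higher in aged, against 50.7% with the plain total. The aged library enters this comparison and the one with D+Q, and the young library this one and the last, so the 3 sets of ratios are not independent.

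The genes lowest in aged members were those of the urothelial-rich young barcodes. S100a6, a calcium-binding protein, had 285 young, 0 aged and 8 D+Q counts, with 96.8% of the young counts in the 14 barcodes, and was at least 44.6-fold higher in young than in aged. Upk3a, a plaque protein of the urothelial surface, had 116, 0 and 2 counts, 18.1 times that floor in young. Igfbp2, an insulin-like growth factor binding protein, had 175, 0 and 1, 27.4 times that floor in young. Ly6d had 198, 1 and 0 counts, the keratin Krt19 119, 1 and 5, and the glutathione transferase Gstm1 413, 11 and 27, with 95.4% of its young counts in the same barcodes. None of these 6 genes reached 60 counts in the 120 members, so they were not compared there.

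Genes higher in aged than in young members included several of the connecting tubule. Clu, the secreted chaperone clusterin, which also marks injured tubules, stood at 494, 1556 and 2143 CPM in young, aged and D+Q, in 16, 18 and 36 members, and 48.9% of its young counts lay in urothelial-rich ones. Its aged over young log2 ratio was 1.65 (1.25 to 2.06), and 1.69 (1.20 to 2.23) over the 120 members, whereas in the other barcodes it was -0.47. Spp1 was 713, 2179 and 2665 CPM, with a log2 ratio of 1.61 (1.28 to 1.95) that was 0.88 (0.52 to 1.24) over the 120 members and -0.81 in the other barcodes. S100g was 359, 1161 and 1089 CPM, with 1.69 (1.22 to 2.17) and 1.06 (0.56 to 1.58). Clu and S100g thus stayed past 2-fold without the urothelial and endothelial rich members, and Spp1 did not. Tmem52b, a membrane protein of the distal nephron, had 24, 38 and 96 counts, with 1.74 (0.98 to 2.56) and 1.34 (0.48 to 2.31). Rhbg had 7, 16 and 52 counts, with 2.23 (0.92 to 3.81) and 1.50 (0.14 to 3.21). Each of these genes was higher in the members rich in connecting tubule transcripts, and in aged and D+Q those had the higher mitochondrial share. Of the 120 members at or below 25%, Clu was 397, 1461 and 556 CPM, S100g 611, 989 and 355 CPM, Spp1 1223, 1461 and 793 CPM and Rhbg 61.1, 64.5 and 59.2 CPM. Above 25% they were 1475, 2613 and 6217 CPM for Clu, 901, 2142 and 2891 CPM for S100g, 2212, 4669 and 6501 CPM for Spp1 and 164, 557 and 769 CPM for Rhbg. The part of the mitochondrial share in these differences was not tested. Where members could hold 1 UMI of the excluded genes, the Spp1 ratio was -0.15.

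Aqp2 and Hsd11b2 were both higher in aged than in young members, by 1.38 (0.79 to 1.98) and 1.62 (1.22 to 2.04) on the log2 scale. Over the 120 members the values were 0.92 (0.26 to 1.61) and 0.93 (0.51 to 1.38), just under 2-fold. Where members needed 5 UMIs of 3 markers the Aqp2 ratio was 0.27, and after thinning each barcode to 1000 UMIs it was 0.53, both under 2-fold. The rule was applied again after thinning. Of the 28 young, 28 aged and 56 D+Q members then found, 14, 18 and 33 were members before, so thinning also changed the barcodes compared. The calcium genes Calb1 and Slc8a1 did not share this direction. Calb1 had 38 young, 8 aged and 62 D+Q counts, with an aged over young log2 ratio of -1.09 (-2.47 to -0.03) and -1.83 (-3.22 to -0.75) over the 120 members. Slc8a1 stood at 2919, 2945 and 1385 CPM, a log2 ratio of 0.01 (-0.21 to 0.23), but at 6209, 3349 and 1663 CPM over the 120 members, a log2 ratio of -0.89 (-1.12 to -0.66). Its counts were uneven, since 3 young members carried 69.5% of them in that set. Magi2, a scaffold protein of cell junctions (629, 1556 and 693 CPM), and the transcription factor Dach1 (337, 874 and 371 CPM) were higher in aged than in the other 2 libraries, with aged over young log2 ratios of 1.31 (0.93 to 1.69) and 1.37 (0.86 to 1.89). Over the 120 members the ratios were 0.90 (0.47 to 1.34) and 0.89 (0.31 to 1.50), both under 2-fold. A single aged member held 60 of the 130 aged Magi2 counts. Leaving out in each library the member with most counts of the gene, an alternative chosen after the data were seen, gave 0.71 over all members and 0.32 over the 120 for Magi2, and 1.17 and 0.70 for Dach1. Magi2 turned to -0.84 where members needed 5 UMIs of 3 markers, and Dach1 to -0.13 and Calb1 to 0.00 where barcodes were thinned to 1000 UMIs before selection.

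**Figure D5:**
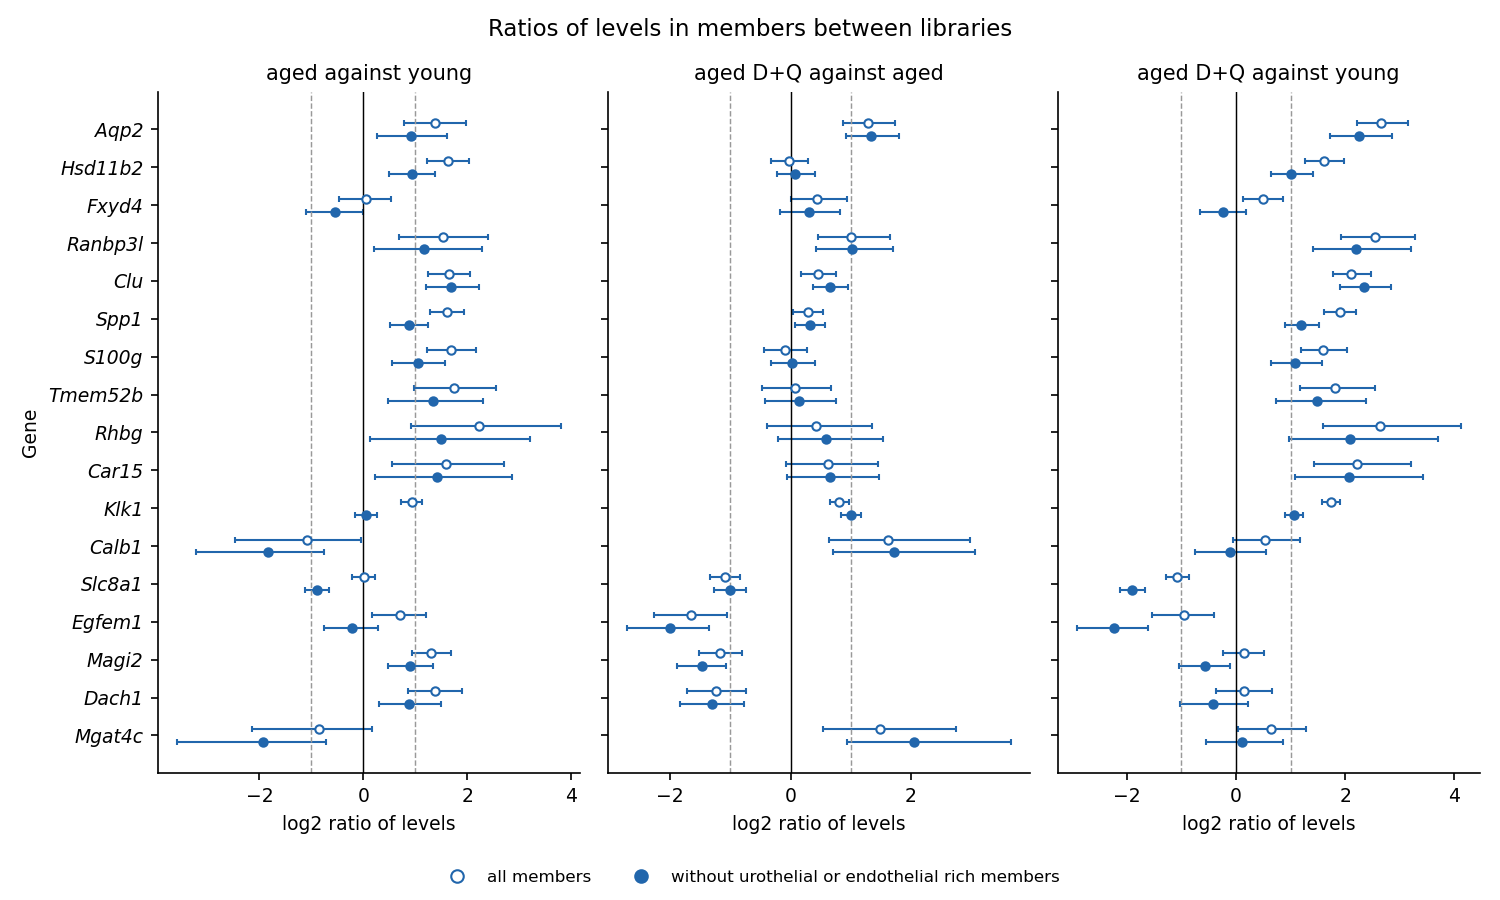
Log2 ratios of levels in members for 17 genes, in 1 panel for each pair of libraries. Open circles are all 165 members and filled circles the 120 members, with exact 95% intervals that cover counting error only; dashed lines mark 2-fold. Aqp2 lies right of 2-fold in D+Q against aged in both sets, Slc8a1, Egfem1, Magi2 and Dach1 lie left of it, and Slc8a1 lies farther left in the 120 members in D+Q against young, at -1.90 beside -1.07.

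Between D+Q and aged members 133 of the 1324 genes (10.0%) were apart, 4.68% higher and 5.36% lower in D+Q, and 52 of 583 (8.92%) among the 120 members, 18 higher (3.09%) and 34 lower (5.83%). The median log2 ratio of all genes was -0.10 in both sets. TMM factors moved it to 0.10 over all members, and that of aged over young from 0.13 to -0.02. With TMM factors 74.2% of the genes apart among all members were higher in D+Q, against 46.6% with the plain total. Aqp2 was higher in D+Q by 1.28 (0.87 to 1.73), and by 1.33 (0.92 to 1.80) over the 120 members, while it was 0.49 in the other barcodes. It was under 2-fold with a mitochondrial limit of 25% (0.88), with 1 UMI of the excluded genes allowed (0.87) and after thinning to 1000 UMIs and selecting again (0.11). Hsd11b2 differed little, at -0.02 (-0.32 to 0.30) and 0.08 (-0.23 to 0.40). Klk1 was higher by 0.81 (0.65 to 0.97), and by 1.00 (0.84 to 1.17) over the 120 members, with the concentration in few members given above. Calb1, the calcium buffer calbindin, was higher by 1.62 (0.63 to 2.97), and Ranbp3l (124, 359 and 733 CPM) by 1.01 (0.45 to 1.65). Mgat4c, a glycosyltransferase gene, had 36, 9 and 63 counts and was higher by 1.49 (0.54 to 2.75). The actin-binding thymosin Tmsb4x (94, 7 and 82 counts) and the cytoskeletal actin Actb (47, 9 and 84 counts) were higher by 2.21 (1.19 to 3.66) and 1.90 (0.98 to 3.15). Tmsb4x had 67.0% of its young counts in the urothelial-rich members and did not reach 60 counts in the 120 members. Clu, Spp1 and S100g were within 2-fold, at 0.46 (0.18 to 0.76), 0.29 (0.05 to 0.54) and -0.10 (-0.44 to 0.27).

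Lower in D+Q than in aged were Slc8a1 by -1.09 (-1.34 to -0.83), Egfem1 by -1.66 (-2.27 to -1.06), Magi2 by -1.17 (-1.52 to -0.81) and Dach1 by -1.23 (-1.72 to -0.75). Over the 120 members the values were -1.01 (-1.28 to -0.74), -2.01 (-2.72 to -1.35), -1.47 (-1.88 to -1.07) and -1.30 (-1.84 to -0.77). Without the member with most counts in each library the Magi2 ratio was under 2-fold, at -0.57 over all members and -0.90 over the 120, since 3 aged members carried 62.3% of its aged counts. The other 3 genes stayed past 2-fold in both sets. Egfem1 was found in 7 of the 30 aged and 7 of the 57 D+Q members of that set. Slc8a1 ran opposite to Klk1 and Calb1 here, although all 3 belong to connecting tubule cells. Magi2 turned to 0.11 where members needed 5 UMIs of 3 markers, and after thinning to 1000 UMIs Calb1 was at -0.36 and Tmsb4x at -0.21. With a mitochondrial limit of 25%, Klk1 was at -2.14 and Clu at -1.54.

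Between D+Q and young members 120 of the 1324 genes (9.06%) were apart, 4.23% higher and 4.83% lower, and 78 of 583 (13.4%) among the 120 members, 37 higher (6.35%) and 41 lower (7.03%). Aqp2 had a log2 ratio of 2.66 (2.22 to 3.16), and 2.25 (1.73 to 2.85) over the 120 members, with 0.91 in the other barcodes and 0.64 after thinning to 1000 UMIs. Clu was higher by 2.11 (1.78 to 2.47) and 2.34 (1.91 to 2.84), Spp1 by 1.90 (1.62 to 2.19) and 1.19 (0.89 to 1.51), and S100g by 1.59 (1.19 to 2.03) and 1.09 (0.65 to 1.57). Ranbp3l was higher by 2.54 (1.92 to 3.29) and 2.20 (1.42 to 3.20). Pappa, a protease that frees insulin-like growth factors, had 6, 11 and 63 counts and was higher by 3.13 (2.03 to 4.73) and 2.28 (1.08 to 4.08). Car15, a carbonic anhydrase, had 14, 20 and 75 counts and was higher by 2.22 (1.42 to 3.20) and 2.07 (1.09 to 3.42). Rhbg was higher by 2.65 (1.59 to 4.12), Tmem52b by 1.82 (1.18 to 2.55) and Klk1 by 1.74 (1.58 to 1.90). Slc8a1 was lower by -1.07 (-1.29 to -0.86) and -1.90 (-2.13 to -1.67), of which the first was -0.52 and under 2-fold without the member with most counts in each library. In young that member held 224 counts. Egfem1 was at -0.96 (-1.54 to -0.40) and -2.23 (-2.92 to -1.61). Without the member with most Egfem1 counts in each library these ratios were -0.17 and -1.65. Among all young members 3 carried 85.3% of the Egfem1 counts, and 1 of them held 44. With a mitochondrial limit of 25%, Klk1 turned to -1.42, S100g to -0.33 and Rhbg to 0.12, while Aqp2 was at 1.92. With 1 UMI of the excluded genes allowed, Spp1 was at -0.19.

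The pathways of the segment are given by list, as the number of measured genes apart in aged over young, D+Q over aged and D+Q over young, over all members unless the 120 are named. Among all genes measured, 8.46% were higher and 8.23% lower in the first comparison, 4.68% and 5.36% in the second and 4.23% and 4.83% in the third. For the 120 members these shares were 5.15% and 4.46%, 3.09% and 5.83%, and 6.35% and 7.03%. The lists are short, so a count of 1 or 2 genes apart lies close to such a background. In sodium transport and the aldosterone response, 14 of 24 listed genes were measured. Of these, 2 were higher and 2 lower in aged than young, 0 were apart in D+Q against aged, and 3 were higher and 1 lower in D+Q than young, with median log2 ratios of 0.59, -0.07 and 0.51. The sodium pump subunit Atp1b1 stood at 1078, 2143 and 2324 CPM, at least 2-fold apart between D+Q and young. The channel-activating protease Tmprss2 (84, 18 and 30 counts) and its inhibitor Spint2 (137, 28 and 81 counts) were lower in aged, with 81.0% and 67.9% of their young counts in urothelial-rich members. Nr3c2 was 382, 395 and 336 CPM. Among the 120 members 11 genes were measured, of which 0 were apart in the first pair of comparisons and 1, Hsd11b2, was higher in D+Q than young. In water transport and vasopressin signalling 6 of 22 genes were measured. Aqp2 was the single gene apart, and higher, in each comparison, but it is one of the genes the rule used, as Hsd11b2 is in the sodium list, so both are a description. The medians were 0.55, 0.33 and 0.32. The phosphodiesterase Pde4d, which degrades cyclic AMP, stood at 1555, 2478 and 1626 CPM, and Gnas, the stimulatory G protein, at 258, 180 and 251 CPM. Among the 120 members 5 genes of this list were measured. Of these, 0, 1 and 3 were higher and 0 lower in the 3 comparisons, with medians of 0.58, 0.60 and 1.18. Aqp2 was thus not apart there in aged over young.

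Of the potassium and chloride channels 5 of 18 were measured, with 2 higher in aged than young, 0 apart in D+Q against aged and 2 higher in D+Q than young, and medians of 0.96, 0.00 and 0.61. Kcnj1, the secretory potassium channel ROMK, was higher in both (10, 11 and 40 counts). The list of connecting tubule calcium and kallikrein genes had 10 of 13 measured, with 1 higher and 2 lower, 2 higher and 1 lower, and 2 higher and 1 lower genes, and medians of 0.01, 0.02 and 0.06. Its members thus differed in both directions in each comparison. Kl was 415, 754 and 542 CPM, and Trpv5 had 4, 5 and 6 counts. Of 34 collecting duct transcription factors 8 were measured, with 1 higher in aged than young, 1 lower in D+Q than aged, and 1 higher in D+Q than young (Tfcp2l1, 225, 347 and 477 CPM), and medians of 0.57, -0.23 and 0.33. Mecom was 1050, 814 and 863 CPM. None of the 6 measured in the 120 members was apart in any comparison.

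Junction genes and keratins, 9 of 22 measured, had 1 higher and 4 lower in aged than young, 1 higher in D+Q than aged, and 2 higher and 4 lower in D+Q than young, with medians of -0.65, 0.53 and 0.20. The 4 lower genes were Krt19, Krt7, Krt18 and Cd9, with 86.6% to 100% of their young counts in urothelial-rich members. In the 120 members the 5 measured genes, among them Cdh16, Epcam, Cdh1 and Cd9, were all higher in D+Q than young, with a median of 1.63 beside -0.11 for all genes. Cdh16, kidney cadherin, was 425, 744 and 921 CPM there, and Epcam, an epithelial adhesion protein, 116, 215 and 381 CPM. Osmolyte and medullary tonicity genes had 5 of 14 measured, with 2 lower in aged than young and the same number lower in D+Q than young, and medians of -0.80, -0.18 and -0.34. Akr1b3, the aldose reductase that makes sorbitol, had 148, 4 and 6 counts, and 98.0% of the young ones lay in urothelial-rich members. The tonicity factor Nfat5 was 472, 419 and 371 CPM. Prostaglandin and endothelin genes had 2 of 19 measured and 0 apart, with medians of -0.52, 0.28 and -0.25. Cilium and polycystin genes had 3 of 12 measured and 1, Bicc1 (264, 563 and 381 CPM), higher in aged than young, with medians of 0.94, -0.57 and 0.53. Pkhd1, the fibrocystin gene, was 949, 1819 and 1501 CPM.

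Genes tied to senescence, the process the treatment is aimed at, were sparsely covered. Of 28 arrest and senescence genes 3 reached 60 counts and 0 of them were apart in any comparison, with medians of -0.11, 0.59 and 0.47. Igfbp7, a secreted binding protein, was 1583, 1460 and 2199 CPM. Cdkn1a, the cell cycle inhibitor p21, had 10, 0 and 4 counts, and 0, 0 and 4 in the 120 members. Cdkn2a, p16, had 0 in each library, where 3 counts would give 16.8, 35.9 and 15.1 CPM, so a difference in it was not detectable at this depth. Of 24 survival factors of senescent cells only Hif1a was measured, at 191, 251 and 331 CPM, with log2 ratios of 0.41, 0.38 and 0.79. Immediate early genes had 0 of 21 measured and 15 detected, so no single gene of this list was compared. Their summed level was 606, 455 and 387 CPM, against 399, 372 and 368 CPM in the other barcodes. Over the 120 members it was 232, 487 and 346 CPM, in another order of libraries. The part of the digestion in these levels was not tested. Heat shock and unfolded protein genes had 8 of 24 measured and 1, Hsp90aa1 (73.0, 180 and 181 CPM), higher in aged and D+Q than young, with medians of -0.37, 0.20 and -0.04. Tubular injury genes had 6 of 24 measured, with 2 higher and 3 lower, 2 higher, and 2 higher and 1 lower. The higher ones against young were Clu and Spp1, and the lower ones in aged were S100a6, Tmsb4x and S100a11. Their medians were -0.27, 0.72 and 0.09, the first with S100a6 lowest whatever value its 0 counts in aged are given. Havcr1, the injury marker KIM-1, had 0 counts in each library and Lcn2 had 0, 0 and 3. Presentation genes had 3 of 16 measured, with 2 lower in aged than young, 1 higher in D+Q than aged and 1 lower in D+Q than young, and medians of -1.26, 0.77 and -0.76. B2m, the class I light chain, had 85, 11 and 56 counts, and H2-K1 had 109, 21 and 87, with 61.5% of its young counts in urothelial-rich members. The clock genes Rora and Tef, 2 of 20, were not apart, with medians of 0.41, -0.07 and 0.34.

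Genes of respiration were compared because of the high mitochondrial share of some members. Of the 13 mitochondrially encoded genes 12 were measured and 0 were apart over all members, with medians of 0.05, 0.20 and 0.22. Over the 120 members, 11 were measured, 1 was higher in aged and 2 were higher in D+Q than in young, with medians of 0.52, 0.27 and 0.87. Their summed level was 114398, 166078 and 208305 CPM in that set. The nuclear genes of the respiratory chain had 18 of 35 measured and 1 apart, lower in aged than young, with medians of -0.06, 0.16 and 0.02, and over the 120 members 0 of 11 were apart. The 2 gene sets thus differed in their medians in the 120 members, and a test of that difference was not made.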

How the data were processed

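Single kidney cells of male mice were profiled in 3 droplet libraries, 1 per group. The deposited matrices give raw UMI counts of each gene in each barcode, as the authors made them. No aligner and no rule for keeping barcodes is named in the labels. The submitters' processing notes name the builds GRCm39 and mm10 without their roles, so no coordinates were taken from the files, and promoters come from RefSeq on GRCm38.p6. The members and gene lists were chosen with earlier results of these data known. Genes were matched by symbol, and the 52 genes that share a symbol (26 symbols) were kept apart by identifier. The files held 0 further columns of per-sample values.

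Counts were summed over the members of a library and divided by their total. Intervals are exact at 95%: Poisson for levels, conditional binomial for log2 ratios (prior of 0.5 counts) and Clopper-Pearson for shares. With 1 library per group no test between groups was made. UMIs are not fully independent, so intervals cover counting error only. Where a gene had 0 counts, a floor of 3 counts over the library's members was used. Other barcode classes were taken from marker lists. Scrublet (scanpy 1.11.5) called 2 young, 0 aged and 1 D+Q doublets, under 0.5% of barcodes, and was taken not to have worked. No barcode was removed for it, and leaving out the 496, 244 and 464 highest scores, which held 3, 1 and 2 members, was an alternative.

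Genes named in the text are the 11 of the rule, the 20 with the highest lowest ratio of members to other barcodes (at least 50 CPM in every library), the 10 per comparison and direction with the ratio bound farthest from 1 (at least 60 counts, 2-fold, and a level in members no lower than in other barcodes), and the 2 to 4 most different or best known genes of each list. Genes named beyond these, such as those at 0 in marker lists, were chosen after their values were seen. Some genes that the rule takes are not reported here. Alternatives were other mitochondrial and marker limits, thinning to 1000 UMIs, count filters, TMM (edgeR 4.0.16, R 4.3.3) and median-of-ratios scaling, means over cells, and sets of members left out. Software was Python 3.11.15 with numpy 2.4.6, scipy 1.17.1, pandas 2.3.3 and matplotlib 3.10.9, and the interval code was tested on simulated data.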

Additional observations from a re-analysis of the deposited data

How the results depend on the processing

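With a mitochondrial limit of 25%, 0.370% of aged barcodes were members, 132, 85 and 59 genes were apart in aged against young, D+Q against aged and D+Q against young, and the D+Q over young log2 ratios of Klk1 and S100g turned to -1.42 and -0.33. Requiring 5 UMIs of 3 markers gave 0.219%, 0.303% and 0.507% members in young, aged and D+Q, 66, 37 and 55 genes apart, and Magi2 at -0.84 in aged over young and 0.11 in D+Q over aged. Allowing 1 UMI of the excluded genes gave 1.08%, 0.925% and 1.55% members and Spp1 at -0.15 in aged over young and -0.19 in D+Q over young. Thinned to 1000 UMIs, 0.340% of young and 0.710% of D+Q barcodes were members and 14, 6 and 18 genes were apart among fewer measured genes, with Calb1 at 0 and Dach1 at -0.13 in aged over young, and Calb1 at -0.36 and Tmsb4x at -0.21 in D+Q over aged. Of the 28 young, 28 aged and 56 D+Q thinned members, 14, 18 and 33 were also members before thinning. A further 13, 9 and 23 held a UMI of an excluded gene before thinning. With at least 30 counts 618, 461 and 357 genes were apart, and without a filter 7137, 6572 and 6041, where the median of the presentation genes in aged over young was 0.16. Leaving out the 25% of members richest in proximal tubule markers gave 0.522% in young and 0.697% in D+Q. Leaving out urothelial or endothelial rich members, an alternative chosen after the data were seen, gave 0.401% in young and 0.723% in D+Q and 56, 52 and 78 genes apart. The cause was not tested for the values that turned. The order of the 3 libraries in the share of members, aged under young under D+Q, did not hold with 5 UMIs of 3 markers, after thinning or without the urothelial and endothelial rich members, where young was lowest. Aqp2 kept its direction in all 3 comparisons under each alternative run, though after thinning it was 0.53, 0.11 and 0.64. These runs selected members on a sum that includes Aqp2, or reused such members. Their agreement on Aqp2 is therefore a description and no independent check. Each group is 1 library, so no replicate could be left out, and depth limits genes of few counts to wide intervals. No paired analysis was possible because each group has 1 sample.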

Other observations

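Among the 120 members, the genes lower in aged than in young included several of the proximal tubule, where the summed proximal tubule markers were also lower (27208, 19477 and 18914 CPM in young, aged and D+Q). Napsa, an aspartic protease, stood at 1185, 558 and 887 CPM, and Slc22a12, a urate transporter, at 412, 157 and 173 CPM. Ftl1, the ferritin light chain, was 1713, 744 and 776 CPM. In the other barcodes Napsa was 958, 1069 and 1029 CPM, so its lower aged level was not seen there. From aged to D+Q the summed markers did not rise, while Napsa did. The part of proximal tubule RNA in these levels was not tested.

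A further gene of the members themselves followed the same order. Frmpd4, a scaffold protein gene, had 79, 20 and 66 counts, or 1018, 286 and 457 CPM, at 17.8 to 35.1 CPM in the other barcodes. Ppargc1a, a coactivator of mitochondrial gene expression, was highest in aged, at 258, 575 and 276 CPM over all members and 399, 544 and 312 CPM over the 120. Veph1 had 18, 34 and 58 counts over all members, 101, 407 and 291 CPM.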
